A study of Mus musculus with 25 samples.

Results

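The comparison described here set the livers of 5 Western diet-fed mice labelled SIRT1 LKO and given an AAV8 vector for NAMPT (WD LKO NAMPT) against the livers of 3 chow-fed wild-type mice given the empty vector (chow WT EV), which is 8 of the 25 samples of the series. The samples were placed in groups by their titles, and the comparison ran across the 14065 genes over 1 CPM (counts scaled to the library total) in at least 2 of the 25 libraries. All mice were C57B/6J males of 20 weeks, and each gave 1 poly-A selected liver library. SIRT1 LKO mice carried loxP-flanked Sirt1 alleles and Cre recombinase under the albumin promoter, which is active in hepatocytes, and the wild-type littermates carried the floxed alleles without Cre. NAMPT was driven by the thyroxine binding globulin promoter, another hepatocyte promoter. The Western diet (TD88137) ran for 12 weeks. Diet, genotype and vector all changed together here, so the effects of the 3 cannot be told apart in this comparison. The other groups, which entered the expression filter and the fit and were used to place the comparison, were WD WT EV with 6 libraries, WD LKO EV with 5 and WD WT NAMPT with 6.

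As background, hepatocytes keep their sterol content by a feedback loop. When membrane cholesterol is low, the SREBP-2 protein is released and raises the genes of cholesterol synthesis and uptake, and when sterols are plentiful the oxysterol-activated LXR receptors raise the genes that export sterols and, through Srebf1, the genes of fatty acid synthesis. NAMPT makes nicotinamide mononucleotide, a precursor of NAD, which the deacetylase SIRT1 consumes. FGF21 is a fasting- and stress-induced hormone released by the liver.

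Total counts were 22797581 to 25965556 in the 3 chow libraries and 23279162 to 31038182 in the 5 WD LKO NAMPT libraries. Chow libraries 1 and 2 lay closer to each other (chi-square per degree of freedom 15.1) than either did to chow library 3 (84.8 and 76.2), and the limma sample weights were 1.80, 2.5 and 0.608 for chow libraries 1, 2 and 3. In the WD LKO NAMPT libraries the weights ran from 0.410 (library 3) to 1.91 (library 2). Nothing in the labels says more than that each library is a separate sample, so p-values measure the spread between these samples. Hepatocyte markers summed to 79346 to 92329 CPM in chow and 61859 to 80565 CPM in WD LKO NAMPT, and Alb, the main plasma protein of hepatocytes, was at 32929 CPM or more in all 8 libraries.

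In WD LKO NAMPT against chow WT EV, 3874 of 14065 genes (27.5%) were called by limma at a Benjamini-Hochberg adjusted p of 0.05 or less. Of these, 1943 were higher (13.8% of genes tested) and 1931 lower (13.7%), 596 by over 2-fold upward and 510 by over 2-fold downward. The libraries of the groups did not overlap for 3045 genes (21.6%), and 2400 genes were both called and free of overlap. The count rested on chow libraries 1 and 2. It was 1424 without chow library 1, 1278 without chow library 2 and 3790 without chow library 3, and it was 1613 with equal sample weights. Counts of list members below that moved are therefore given with the lowest and highest value over 10 other settings and 8 fits that each left out 1 library. The background shares of 13.8% higher and 13.7% lower are the ones to read each list count of the fit with all libraries against. They belong to that fit only. Where another fit called fewer genes, its shares over all genes were lower too. Without chow library 2, 529 genes were called higher and 749 lower of 14023 tested. With equal sample weights 708 were called higher and 905 lower of 14065.

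**Figure D1:**
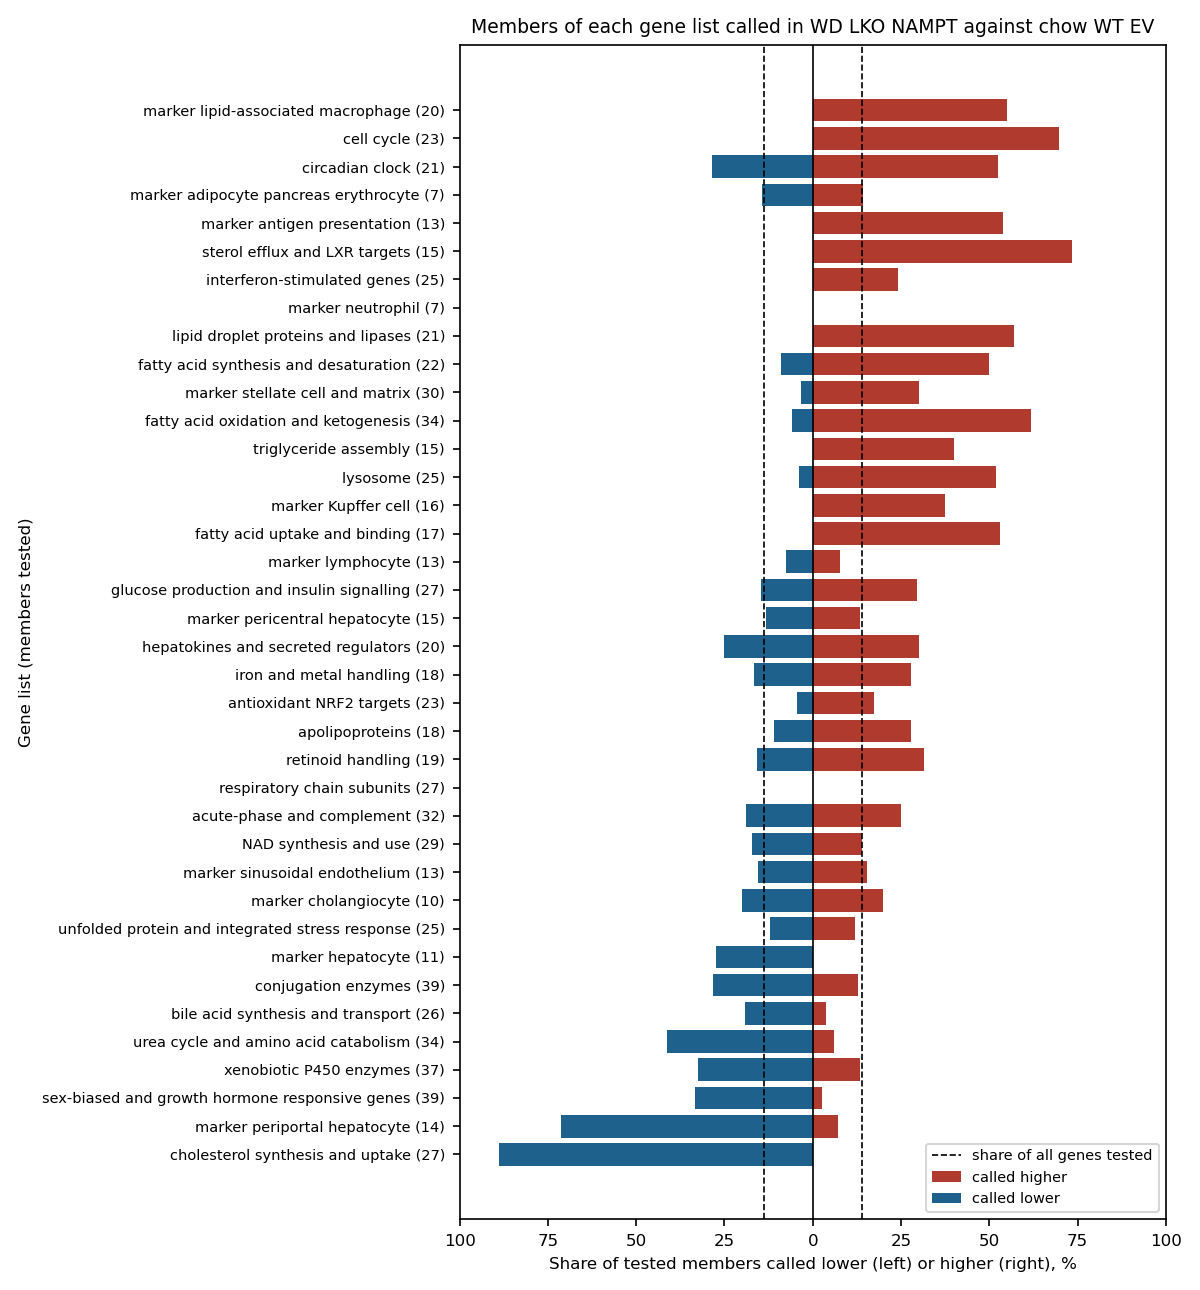
Share of the tested members of each gene list that was called higher (right, red) or lower (left, blue) in WD LKO NAMPT against chow WT EV, in percent, with the number of members tested in parentheses and the shares over all genes tested (13.8% and 13.7%) as dashed lines. Cholesterol synthesis and uptake (24 of 27 lower) and periportal hepatocyte markers (10 of 14 lower) lay farthest to the left, and no respiratory chain subunit was called.

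The label checks came first. Sirt1 (ENSMUSG00000020063, chr10:63319005-63381704, minus strand, GRCm38) was at 10.7, 10 and 9.69 CPM in chow libraries 1 to 3. In WD LKO NAMPT libraries 1 to 5 it was at 8.68, 8.08, 11, 10.3 and 11 CPM. The groups overlapped, and the difference in mean log2(CPM + 0.5) was -0.05 (exact two-sided permutation test, p = 0.714). Counts per gene do not resolve the deleted exon, so they do not check the knockout, and the mice are called libraries labelled SIRT1 LKO. Nampt (ENSMUSG00000020572, chr12:32820335-32853369, plus strand) was at 45.2, 35.5 and 41.3 CPM in chow and at 73.5, 83.4, 126, 62.1 and 53.9 CPM in WD LKO NAMPT. Every WD LKO NAMPT library was above every chow library (log2 fold change 0.87 ± 0.17 SE, limma adjusted p = 0.000693; exact permutation p = 0.0357, the smallest that 3 against 5 allows, and 0.0536 adjusted over 3 genes). Reads from the vector and from the mouse gene could not be told apart. The mean was 79.8 ± 28.3 CPM (SD, n = 5), against 47.3 ± 6.46 in WD WT EV (n = 6), 56 ± 11.9 in WD LKO EV (n = 5) and 59.5 ± 10.6 in WD WT NAMPT (n = 6). Diet and genotype also differ from chow, so the rise over chow does not by itself check the vector. Against WD LKO EV, which differs by the vector, limma did not call Nampt. The libraries of those groups overlapped, with WD LKO EV at 45.9 to 75.5 CPM. The titles name NAMPT as the insert, whereas the labels' treatment text names SIRT1.

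Fgf21 (chr7:45613907-45615490) was nearly silent on chow, at 0.330, 0.356 and 0.158 CPM (4 to 8 reads per library). It stood at 4.32, 7.59, 6.01, 6.42 and 8.23 CPM in WD LKO NAMPT (124 to 243 reads). The groups did not overlap, and the log2 fold change was 4.39 ± 1.34 (limma adjusted p = 0.0173; exact permutation p = 0.0357, 0.0536 over 3 genes). The limma call was lost without chow library 1, without chow library 2, with equal sample weights and without the expression filter. The limma adjusted p reached 0.215 without chow library 2. In the other Western diet groups Fgf21 ran from 0.369 to 14.5 CPM in WD WT EV and from 3.5 to 11 CPM in WD LKO EV. In WD WT NAMPT it ran from 1.4 to 26.9 CPM. All 5 WD LKO NAMPT libraries lay within each of these ranges. Which of diet, genotype and vector raised Fgf21 over chow was not tested. Among the 29 tested genes of NAD synthesis and use, 4 were higher (2 to 5 over the other settings and left-out libraries) and 5 lower (2 to 7), close to the background shares. Beside Nampt, the NAD kinase Nadk rose (0.54 ± 0.09, adjusted p = 7.61e-05). Acmsd, which diverts the tryptophan pathway away from NAD, fell (-1.60 ± 0.30, adjusted p = 0.000494), as did Afmid, an earlier enzyme of that pathway (-1.29 ± 0.24, adjusted p = 0.000385).

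Genes of cholesterol synthesis and uptake fell nearly as a block. Of 27 tested members 24 were lower and 0 higher, with a median log2 fold change of -1.72 against 0.00 over all genes. The number called lower was 22 to 24 over the other settings and left-out libraries, and 1 member was called higher without WD LKO NAMPT library 2. Sqle, which makes squalene epoxide at a controlled step, fell from 139, 135 and 58.9 CPM in chow to 11.4, 6.67, 5.75, 2.62 and 2.54 CPM (log2 fold change -4.71 ± 0.35, adjusted p = 1.16e-09). The lowest chow library was more than 5 times the highest WD LKO NAMPT library. Idi1, the isopentenyl diphosphate isomerase, was at 118, 108 and 52.9 CPM in chow and at 6.73, 6.70, 11.1, 5.75 and 6.37 CPM in WD LKO NAMPT (-3.94 ± 0.22, adjusted p = 6.58e-12). Chow library 3 was the lowest chow library for both genes.

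The fall ran along the pathway. Cyp51, the lanosterol demethylase, fell from 276, 268 and 172 CPM to 29.9, 42.8, 49.2, 33.8 and 26.8 CPM (-2.85 ± 0.21, adjusted p = 1.18e-09). Mevalonate kinase, Mvk, fell from 41.4, 40.7 and 25.7 CPM to 8.19, 7.62, 7.36, 7.56 and 5.35 CPM (-2.46 ± 0.13, adjusted p = 4.90e-12). The groups did not overlap for any of these. Srebf2, which encodes SREBP-2, was at 95.9, 96.8 and 78.8 CPM against 50.3, 43.4, 41.7, 47.4 and 43.9 CPM (-1.07 ± 0.09, adjusted p = 2.55e-08). The other members called lower ran from -3.02 (Msmo1) to -0.48 (Ebp).

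The values of the other Western diet groups against the same 3 chow libraries are given side by side, since all share those controls. For Sqle they were -4.74 in WD WT EV, -3.97 in WD LKO EV and -5.34 in WD WT NAMPT on the log2 scale. For the median of the 27 genes they were -1.49, -1.70 and -2.02.

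The promoters of these genes are shown because the list moved together. RefSeq promoter sequences (GRCm38.p6) were matched by symbol for 19 of the 27 tested members. The letters CCAAT, on either strand, stood within 250 bases before a start of 17 of the 19 (89.5%), against 37.5% of 27025 genes in the same table. TCACCCCA, letters of a sterol response element, stood in 2 of the 19 (Hmgcs1 and Srebf2), or 10.5% against 1.54% of all genes. These matches are descriptions of letters, not evidence of binding. 3 windows, all upstream of the start and outside the exons given in the files, are printed 5′ to 3′ with CCAAT, its reverse complement ATTGG and TCACCCCA in capitals. They are Hmgcs1 at chr13:119690151-119690330 on the plus strand, Mvk at chr5:114444069-114444268 on the plus strand and Mvd at chr8:122443423-122443522 on the minus strand.
Hmgcs1: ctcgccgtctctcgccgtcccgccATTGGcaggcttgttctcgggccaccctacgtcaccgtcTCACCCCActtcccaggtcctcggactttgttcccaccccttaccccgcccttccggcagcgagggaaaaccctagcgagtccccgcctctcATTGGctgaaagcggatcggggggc
Mvk: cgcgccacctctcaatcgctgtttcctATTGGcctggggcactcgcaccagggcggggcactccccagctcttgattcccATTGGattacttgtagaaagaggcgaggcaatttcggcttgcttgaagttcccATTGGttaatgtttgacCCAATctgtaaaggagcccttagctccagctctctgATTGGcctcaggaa
Mvd: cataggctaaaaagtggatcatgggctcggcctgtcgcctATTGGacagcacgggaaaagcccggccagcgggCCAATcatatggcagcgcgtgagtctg
The Hmgcs1 window holds 2 CCAAT matches and the TCACCCCA match, the Mvk window 5 CCAAT matches and the Mvd window 2. The log2 fold changes of these genes were -2.45 for Hmgcs1 (adjusted p = 8.84e-07), -2.46 for Mvk and -2.44 for Mvd (adjusted p = 2.33e-05).

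Genes of sterol efflux moved the other way. Of 15 tested members 11 were higher and 0 lower, with a median log2 fold change of 0.72, and the number called higher was 6 to 12 over the other settings and left-out libraries. Abcg5 and Abcg8 form the transporter that excretes sterols into bile. Abcg5 rose from 23.1, 29.4 and 70.6 CPM to 188, 174, 243, 159 and 171 CPM (2.55 ± 0.24, adjusted p = 6.01e-08). Abcg8 rose from 40.2, 58.5 and 128 CPM to 243, 230, 246, 221 and 218 CPM (2.02 ± 0.26, adjusted p = 6.02e-06). The annotated exons of this gene pair share 82 bases on opposite strands, and whether counting used strand is not stated. Chow library 3 was the highest chow library for both, and all 5 WD LKO NAMPT libraries were above it.

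Srebf1, a target of LXR, was at 282, 273 and 194 CPM against 692, 722, 696, 771 and 742 CPM (1.46 ± 0.20, adjusted p = 1.44e-05). Abcg1, a cholesterol exporter rich in macrophages, rose from 9.50, 9.47 and 12.4 CPM to 37.0, 23.2, 15.9, 23.5 and 26.4 CPM (1.32 ± 0.23, adjusted p = 0.000201). Nr1h3, which encodes the hepatic LXR receptor itself, was at 91.2 to 96.5 CPM on chow and 88.4 to 98.3 CPM in WD LKO NAMPT (-0.01 ± 0.08, adjusted p = 0.919).

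**Figure D2:**
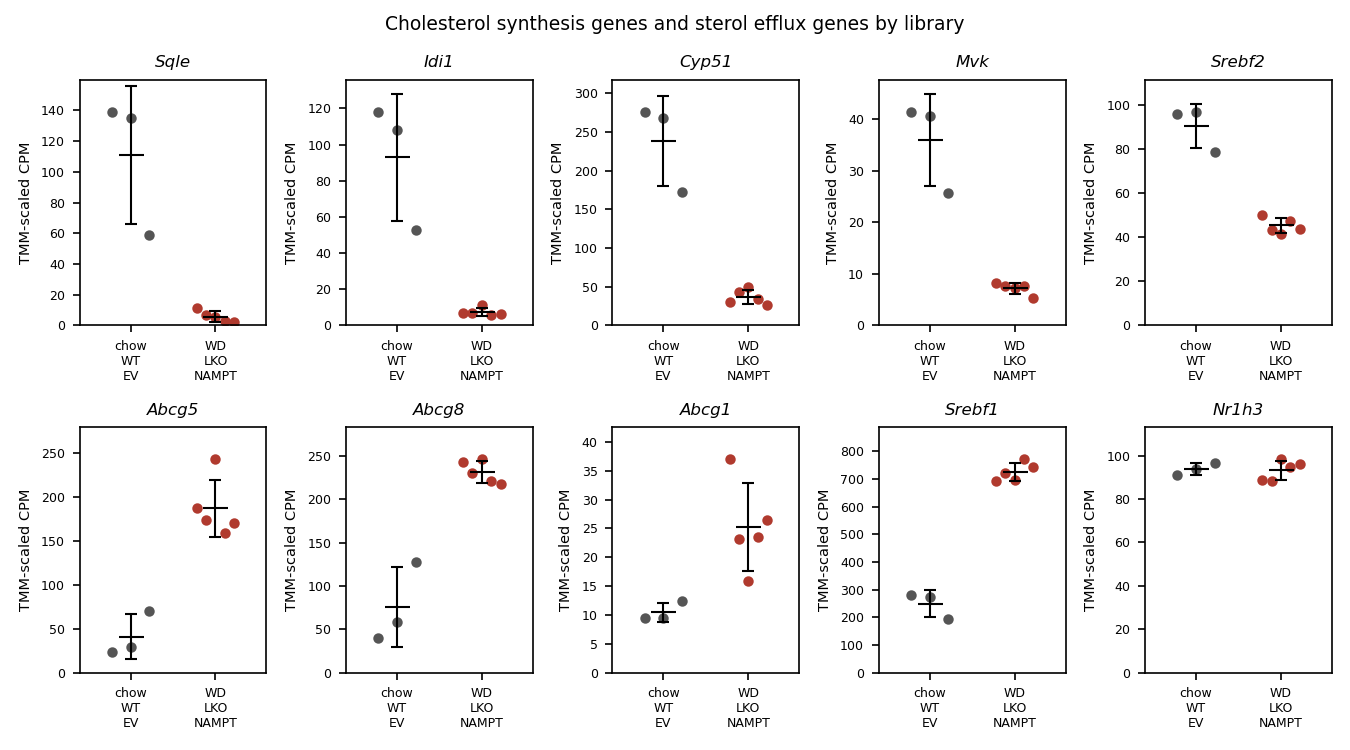
TMM-scaled CPM per library (points) with mean and SD (bars, lower bar cut at 0) for cholesterol synthesis genes and sterol efflux genes in 3 chow WT EV and 5 WD LKO NAMPT libraries, on linear axes. Sqle, Idi1, Cyp51, Mvk and Srebf2 were lower in every WD LKO NAMPT library, Abcg5, Abcg8, Abcg1 and Srebf1 were higher in each, and Nr1h3 overlapped.

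Of 22 tested genes of fatty acid synthesis and desaturation 11 were higher (7 to 13 over the other settings and left-out libraries), 2 were lower (1 to 2, with 1 without chow library 1) and 9 were not called. Scd1, which puts the first double bond into saturated acyl chains, was among the most abundant transcripts. It rose from 7326, 5874 and 14370 CPM to 59010, 61688, 78267, 54737 and 52907 CPM (3.05 ± 0.23, adjusted p = 1.56e-09). The desaturase Fads2 (1.73 ± 0.16, adjusted p = 5.28e-08) and the elongase Elovl5 (1.85 ± 0.26, adjusted p = 2.13e-05) also rose. Acaca, which makes malonyl-CoA, rose from 155, 142 and 120 CPM to 338, 289, 327, 244 and 269 CPM (0.97 ± 0.21, adjusted p = 0.00154). Fasn, the fatty acid synthase, was at 1281, 948 and 548 CPM against 2020, 2051, 2710, 1945 and 1792 CPM (1.02 ± 0.36, adjusted p = 0.0345). Its call was lost in 10 of the 18 other fits, among them edgeR quasi-likelihood (adjusted p = 0.111), the edgeR exact test, DESeq2, equal sample weights, no expression filter, and the fits without chow library 2 or 3 or WD LKO NAMPT library 2, 3 or 5. The members called lower were the elongase Elovl3 (-2.51, adjusted p = 0.000643) and the acetyl-CoA synthetase Acss2 (-1.30, adjusted p = 0.00159).

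Lipid storage genes that were called were all higher, and Cidec was among the largest rises named. Of 21 tested lipid droplet proteins and lipases 12 were higher (6 to 13) and 0 lower, and of 15 triglyceride assembly genes 6 were higher (2 to 7) and 0 lower. Cidec, which fuses lipid droplets, rose from 2.60, 1.60 and 2.13 CPM to 87.1, 65.1, 105, 103 and 37.9 CPM (5.06 ± 1.14, adjusted p = 0.00217). Plin2, the main droplet coat protein of hepatocytes, rose from 353, 332 and 361 CPM to 738, 617, 685, 841 and 568 CPM (0.95 ± 0.18, adjusted p = 0.00053). Mogat1, a monoacylglycerol acyltransferase, rose from 0.330, 0.267 and 0.197 CPM to 2.82, 7.26, 5.62, 4.10 and 5.22 CPM (4.16 ± 1.03, adjusted p = 0.00438). No library of one group reached the values of the other for these 3 genes. Dgat2, which completes triglyceride, was also higher (0.52 ± 0.13, adjusted p = 0.00471), whereas Dgat1 was at 17.6 to 21.3 CPM on chow and 16.9 to 21.9 CPM in WD LKO NAMPT (0.11 ± 0.08, adjusted p = 0.328). Calls for Cidec and Mogat1 were lost without chow library 1 and without chow library 2, and that for Mogat1 also with equal sample weights. The call for Dgat2 was lost with equal sample weights and by both edgeR tests.

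Of 17 tested genes of fatty acid uptake and binding 9 were higher (3 to 9) and 0 lower (0 to 2, with 2 without WD LKO NAMPT library 3). Cd36, a fatty acid transporter, rose from 23.4, 27.3 and 48.9 CPM to 261, 240, 282, 210 and 288 CPM (3.17 ± 0.31, adjusted p = 1.13e-07). Fabp2, the intestinal-type fatty acid binding protein, was at 31.1, 31.8 and 29.7 CPM against 126, 216, 210, 203 and 219 CPM, and with an adjusted p of 4.90e-12 it was tied with Mvk for the smallest of all genes (2.68 ± 0.14). Of 18 apolipoprotein genes 5 were higher (2 to 5) and 2 lower (2 to 4), with the 2 higher reached without chow library 1 and by edgeR quasi-likelihood. Apoa4, carried on chylomicrons and high-density lipoproteins, rose from 41.2, 31.7 and 49.3 CPM to 1238, 1484, 1219, 1299 and 1016 CPM (5.11 ± 0.33, adjusted p = 1.35e-10). Sort1, a sorting receptor for apolipoprotein B, fell from 34.9, 39.2 and 34.6 CPM to 15.4, 11.8, 8.75, 12.9 and 9.79 CPM (-1.67 ± 0.19, adjusted p = 8.76e-07).

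Of 34 genes of fatty acid oxidation and ketogenesis 21 were higher (10 to 21) and 2 lower (1 to 2). Cpt1a, which admits fatty acids to mitochondria, rose from 219, 270 and 351 CPM to 605, 719, 839, 545 and 545 CPM (1.29 ± 0.13, adjusted p = 2.09e-07). Ppara, the nuclear receptor over these genes, rose from 103, 109 and 99.1 CPM to 239, 282, 273, 236 and 213 CPM (1.25 ± 0.17, adjusted p = 1.28e-05). Bdh1, the ketone body dehydrogenase, also rose (1.08 ± 0.10, adjusted p = 9.25e-08). Ppargc1a, a coactivator of oxidative genes, was at 11, 11.7 and 19.6 CPM against 12.5, 8.01, 15.1, 9.08 and 8.98 CPM and did not pass (-0.41 ± 0.18, limma adjusted p = 0.09). It was called, as lower, only without chow library 1. Of 27 respiratory chain subunits 0 were called by limma, against 27.5% of all genes. In the other settings 0 were called higher, and at most 1 was called lower.

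**Figure D3:**
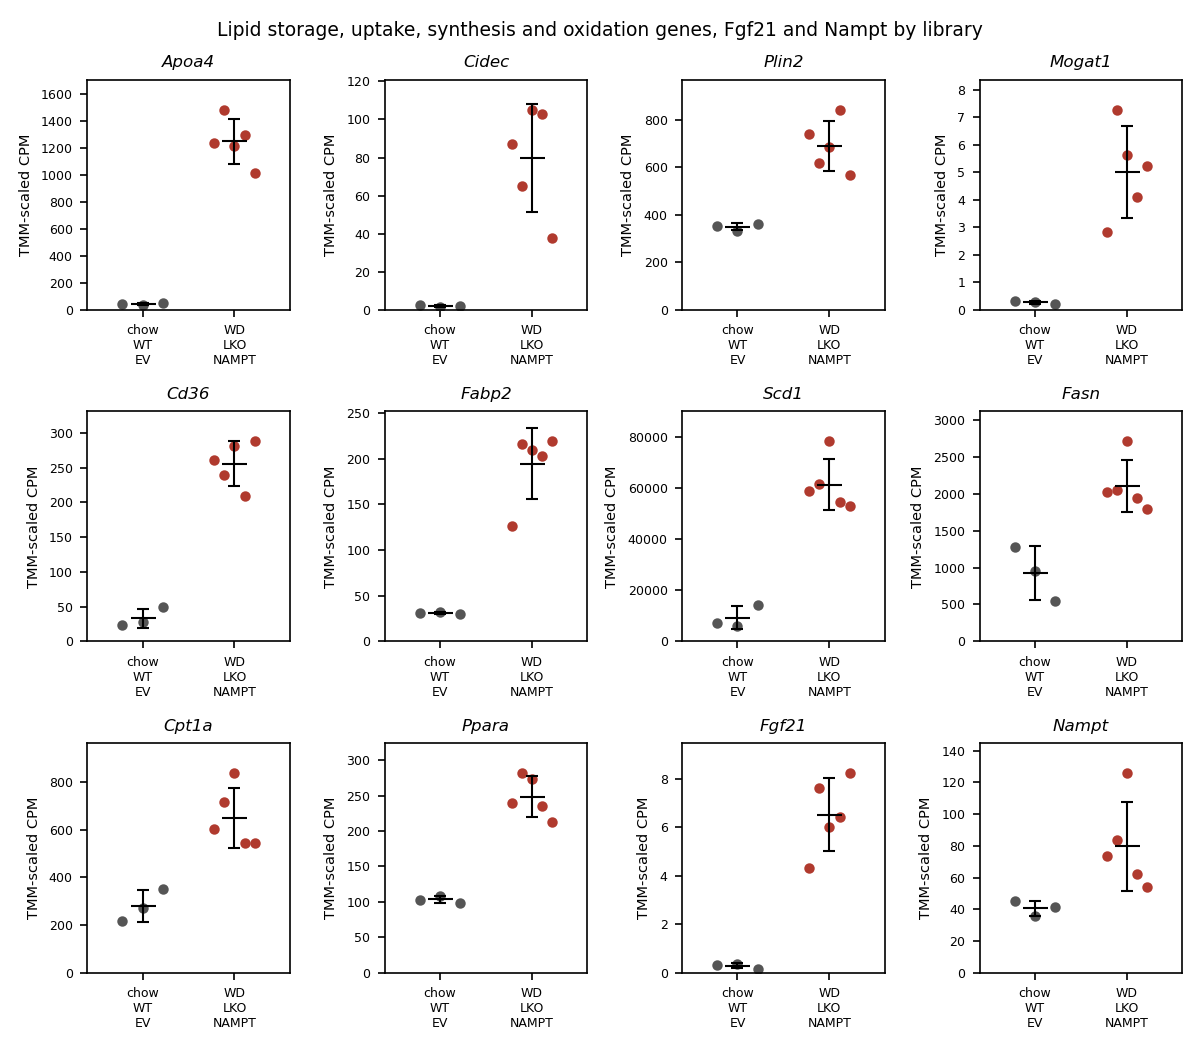
TMM-scaled CPM per library (points) with mean and SD (bars) for lipid storage, uptake, synthesis and oxidation genes, Fgf21 and Nampt in 3 chow WT EV and 5 WD LKO NAMPT libraries, on linear axes. In all 12 genes every WD LKO NAMPT library lay above every chow library, and for Nampt the highest chow library was at 45.2 CPM and the lowest WD LKO NAMPT library at 53.9 CPM.

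Among genes of glucose handling 8 of 27 were higher (7 to 10) and 4 lower (2 to 5). Pcx, pyruvate carboxylase, rose by 0.87 ± 0.15 (adjusted p = 0.00013). G6pc, which releases free glucose, was at 548, 402 and 232 CPM against 240, 211, 308, 179 and 527 CPM and did not pass (-0.67 ± 0.47, adjusted p = 0.299).

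Secreted factors of the liver held large changes in both directions, 6 of 20 higher (3 to 6) and 5 lower (2 to 5). Enho, which encodes adropin, fell from 25.7, 20.1 and 19.7 CPM to 0.488, 0.361, 0.348, 0.423 and 0.712 CPM (-5.54 ± 0.38, adjusted p = 2.58e-10). It was counted at 8 to 21 reads per WD LKO NAMPT library. Inhbe, an activin subunit, rose from 27.8, 22.5 and 11.9 CPM to 95.0, 136, 92.4, 169 and 129 CPM (2.54 ± 0.24, adjusted p = 5.06e-08). Hamp, which encodes the iron hormone hepcidin, fell from 396, 483 and 884 CPM to 28.9, 45.4, 291, 166 and 172 CPM (-2.43 ± 0.51, adjusted p = 0.00115). Bmp6, the main inducer of hepcidin, was also lower (-1.50 ± 0.24, adjusted p = 8.11e-05). The groups did not overlap for Enho, Inhbe or Hamp.

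Of 34 tested genes of the urea cycle and amino acid catabolism 14 were lower (13 to 18), 2 higher (0 to 4) and 18 not called. Cps1, the first enzyme of the urea cycle, was at 5910, 6510 and 7093 CPM on chow and at 2463, 2544, 2611, 2276 and 2764 CPM in WD LKO NAMPT (-1.33 ± 0.26, adjusted p = 0.000688). Cth, which makes cysteine from cystathionine, fell by 1.87 on the log2 scale (SE 0.24, adjusted p = 4.80e-06), and Tat, the tyrosine aminotransferase, by 1.36 (SE 0.22, adjusted p = 0.000108).

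Several of these genes are also used as markers of the periportal zone, where urea synthesis takes place. Of the 14 tested periportal markers 10 were lower (8 to 10) and 1 higher (1 to 2), and their summed level was 14724 to 20236 CPM on chow and 8098 to 10246 CPM in WD LKO NAMPT. Cdh1, E-cadherin, fell from 67.3, 71.6 and 73.8 CPM to 25.9, 14.3, 5.97, 11.3 and 10.6 CPM (-2.45 ± 0.29, adjusted p = 1.86e-06). The pericentral list did not show a shift in a single direction, with 2 of 15 higher (0 to 3) and 2 lower (1 to 3), and its summed level overlapped (4866 to 8395 CPM and 4145 to 10453 CPM). Glul, which marks the hepatocytes next to the central vein, was at 798, 898 and 400 CPM against 794, 1555, 1204, 1342 and 1372 CPM (0.77 ± 0.24, adjusted p = 0.0183), with overlap, and its call was lost in 6 of the 18 other fits, among them both edgeR tests and the fits without WD LKO NAMPT library 2 or 5. In bulk liver RNA, fewer cells of a type and less RNA per cell cannot be told apart.

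Of 37 cytochrome P450 and related genes 12 were lower (6 to 15) and 5 higher (2 to 7). Cyp3a11, the main inducible Cyp3a enzyme, fell from 8661, 9138 and 9763 CPM to 2230, 1319, 3450, 1546 and 1770 CPM (-2.43 ± 0.22, adjusted p = 4.36e-08). Cyp2b10, the target gene of the CAR receptor, fell from 11.5, 16.4 and 13 CPM to 1.25, 0.263, 5.18, 0.845 and 0.610 CPM (-4.53 ± 0.55, adjusted p = 2.26e-06). The receptor gene itself, Nr1i3, did not pass (0.32 ± 0.24, adjusted p = 0.348). Of 39 conjugation enzymes 11 were lower (3 to 13) and 5 higher (0 to 9), and the glutathione transferase Gstp1 fell from 1540, 1323 and 1350 CPM to 349, 298, 264, 334 and 236 CPM (-2.27 ± 0.22, adjusted p = 9.75e-08). Cyp3a, Cyp2b, Gstp and Serpina1 genes have near-identical copies, so their single-gene values are uncertain where reads could be split.

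Of 39 sex-biased and growth hormone responsive genes 13 were lower (6 to 19) and 1 higher (0 to 4). The members called lower included the female-biased Cux2 (-1.13 ± 0.27, adjusted p = 0.00349), Cyp3a41a (-2.16 ± 0.24, adjusted p = 9.24e-07) and Cyp3a16 (-2.44 ± 0.23, adjusted p = 4.87e-08). Cyp3a16 was at 10.4 to 12.5 CPM on chow, and the far more abundant Cyp3a11 fell by a like amount (-2.43). The falls of Cyp3a41a and Cyp3a16 are therefore uncertain, since reads of near-identical copies could be split. Serpina1e, a male-biased antitrypsin gene, had the largest fall, from 12429, 10301 and 13099 CPM to 197, 136, 154, 356 and 92.1 CPM (-6.16 ± 0.89, adjusted p = 2.38e-05). Selenbp2 fell from 1008, 862 and 179 CPM to 29.8, 52.0, 10.1, 53.6 and 28.9 CPM (-4.32 ± 0.72, adjusted p = 0.000126). Cyp2b9, which is female-biased in mouse liver, was at 0.578, 0.80 and 0.473 CPM on chow and at 29.1, 33.0, 202, 52.7 and 116 CPM in WD LKO NAMPT. The groups did not overlap, yet limma with all libraries did not call it (6.35 ± 2.54, adjusted p = 0.0642). Cyp2b9 was not called in 11 of the 18 other fits. Both edgeR tests, DESeq2, library size alone, a filter of mean CPM over 1, the fit of only these groups and the replicate block called it. Stat5b, which carries the growth hormone signal, was lower (-0.50 ± 0.09, adjusted p = 0.000241), and Ghr, the receptor gene, did not pass (-0.24 ± 0.17, adjusted p = 0.288). Bcl6, a male-biased repressor, was at 85.3, 109 and 8.51 CPM on chow and 6.24 to 59.9 CPM in WD LKO NAMPT, so chow library 3 lay within the other group. Its limma call (-2.25 ± 0.72, adjusted p = 0.0228) was lost in 8 of the 18 other fits.

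Of 26 genes of bile acid synthesis and transport 5 were lower (2 to 9) and 1 higher (1 to 2). The uptake transporter Slco1a4 fell from 91.4, 106 and 116 CPM to 38.9, 34.4, 37.6, 22.4 and 46.2 CPM (-1.55 ± 0.27, adjusted p = 0.000192). The hydroxylases Cyp7b1 (-2.31 ± 0.54, adjusted p = 0.00294), Cyp8b1 (-1.04 ± 0.33, adjusted p = 0.0221) and Cyp39a1 (-1.0 ± 0.20, adjusted p = 0.000757) fell too. The calls for all 3 were lost without chow library 2, and those for Cyp7b1 and Cyp8b1 also without chow library 1. Abcb11, the bile salt export pump, fell from 705, 727 and 696 CPM to 414, 481, 477, 447 and 502 CPM (-0.61 ± 0.11, adjusted p = 0.000212). Abcb4, which exports phospholipid into bile, rose from 218, 216 and 205 CPM to 285, 310, 357, 321 and 350 CPM (0.58 ± 0.10, adjusted p = 0.000211). Cyp7a1, the rate-limiting enzyme of bile acid synthesis, was at 348, 195 and 58.9 CPM against 104, 137, 125, 47.4 and 179 CPM (-0.88 ± 0.52, adjusted p = 0.218). The bile acid uptake transporter gene Slc10a1 did not pass either (-0.21 ± 0.29, adjusted p = 0.62).

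Of 21 circadian clock genes 11 were higher (4 to 13) and 6 lower (4 to 6). Arntl, which encodes the activator BMAL1, fell from 37.4, 37.4 and 27.5 CPM to 1.81, 2.0, 4.01, 6.51 and 8.47 CPM (-3.30 ± 0.41, adjusted p = 3.69e-06). Its partners Npas2 (-2.96 ± 0.54, adjusted p = 0.000313) and Clock (-0.73 ± 0.14, adjusted p = 0.000491) fell too. Dbp, an output gene driven by BMAL1, rose from 0.619, 1.24 and 5.12 CPM to 59.1, 63.8, 47.6, 27.8 and 21.8 CPM (5.11 ± 1.17, adjusted p = 0.00253). The call for Dbp was lost without chow library 1 and without chow library 2. Bhlhe40, a repressor of the loop, rose (1.44 ± 0.24, adjusted p = 0.000112), and Nfil3, which opposes DBP, fell (-1.80 ± 0.23, adjusted p = 5.16e-06). The labels give no hour of collection, so a difference in hour between groups was not tested.

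Against the same chow libraries the Arntl fold change was -1.58 in WD WT EV, -2.32 in WD LKO EV and -3.57 in WD WT NAMPT on the log2 scale. For Dbp these values were 4.04, 4.67 and 5.28. Mean Arntl was 34.1 ± 5.68 CPM on chow (n = 3), 12.1 ± 4.76 in WD WT EV (n = 6), 8.35 ± 4.80 in WD LKO EV (n = 5), 3.46 ± 1.94 in WD WT NAMPT (n = 6) and 4.56 ± 2.89 in WD LKO NAMPT (n = 5).

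**Figure D4:**
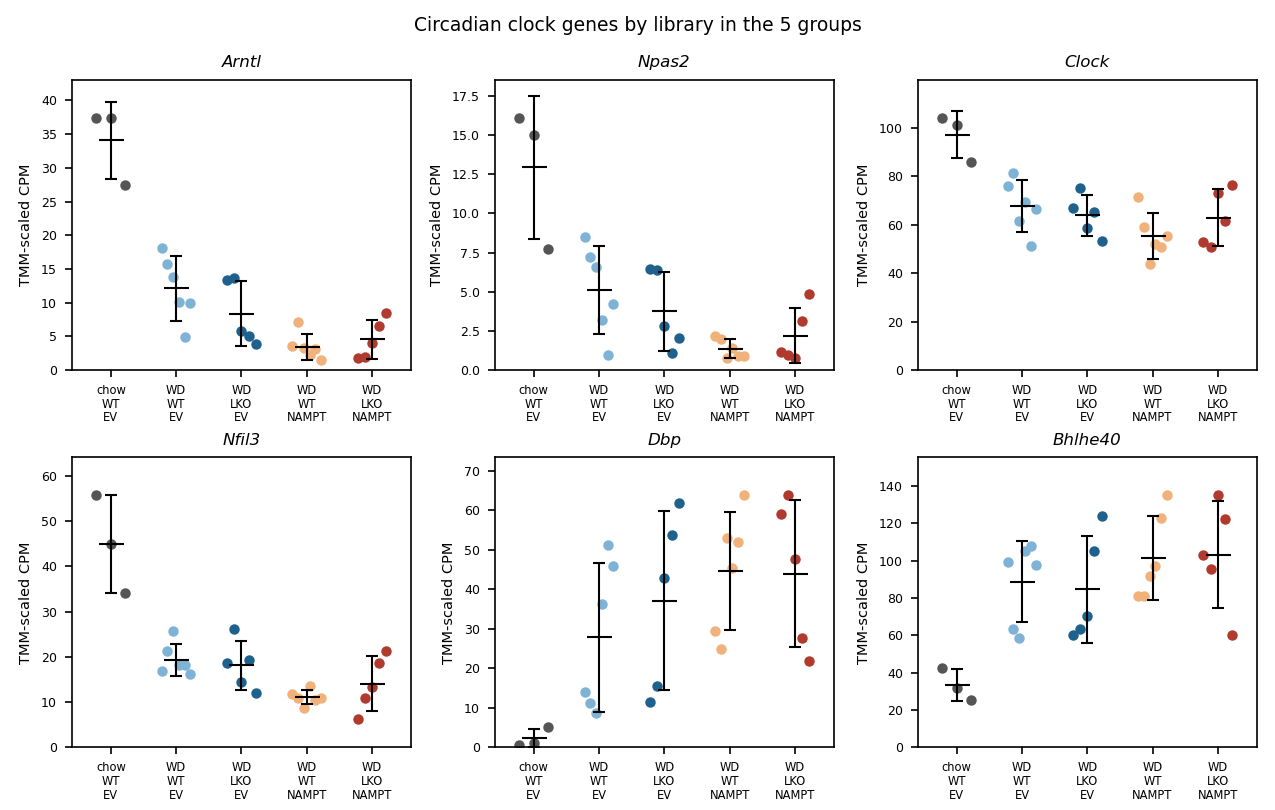
TMM-scaled CPM per library (points) with mean and SD (bars, lower bar cut at 0) for 6 circadian clock genes in the 5 groups, on linear axes. In WD LKO NAMPT all 5 libraries were below all 3 chow libraries for Arntl, Npas2, Clock and Nfil3, and above them for Dbp and Bhlhe40.

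Markers of non-hepatocyte cells were higher in part. Of 20 lipid-associated macrophage markers 11 were higher and 0 lower, and of 16 Kupffer cell markers 6 were higher and 0 lower. The number called ran from 1 to 18 for the first list and from 2 to 7 for the second over the other settings and left-out libraries. Summed levels were 805 to 1074 CPM on chow against 1077 to 2055 CPM for the first list, and 502 to 697 CPM against 598 to 1195 CPM for the second. WD LKO NAMPT library 1 was the highest in both. The first sum includes abundant genes such as the lysosomal protease gene Ctsd. Ctsd was at 248, 249 and 314 CPM on chow and at 326 to 546 CPM in WD LKO NAMPT. Which cells these reads came from was not tested, so the sum is not a measure of macrophage number. Trem2, a receptor of lipid-laden macrophages, was at 0.578, 0.445 and 0.473 CPM on chow and at 11, 1.71, 2.35, 1.18 and 1.83 CPM in WD LKO NAMPT, without a call by limma with all libraries (2.01 ± 0.97, adjusted p = 0.126). Gpnmb, another such marker, ranged from 2.31 to 57.1 CPM in WD LKO NAMPT against 0.0445 to 0.552 CPM on chow and was not called by limma with all libraries (5.72 ± 4.43, adjusted p = 0.353). Trem2 and Gpnmb were each not called in 13 of the 18 other fits. Both edgeR tests, DESeq2, the fit of only these groups and the replicate block called them. Clec4f and Timd4, which mark resident Kupffer cells, did not pass (0.26 ± 0.14, adjusted p = 0.16, and 0.32 ± 0.29, adjusted p = 0.446). Of the same list, Cd5l (log2 fold change 1.26) and Folr2 (0.88) were called higher, as was Anxa2 (2.38) of the first list. These calls held in all 18 other fits. For Cd5l, WD LKO NAMPT library 3 (67.9 CPM) lay within the chow range (52.4 to 76.6 CPM).

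Lysosomal genes were higher beside these markers, 13 of 25 with 1 lower (0 to 1), and 2 to 15 were higher over the other settings and left-out libraries. Lgmn, the lysosomal protease legumain, rose from 39.7, 40.6 and 45 CPM to 109, 68, 60.5, 61 and 64.7 CPM (0.75 ± 0.17, adjusted p = 0.00203). Of 30 stellate cell and matrix genes 9 were higher and 1 lower (0 to 1), but the number higher was 0 to 14 elsewhere. Col3a1, a fibrillar collagen, rose from 20.1, 21.6 and 28.8 CPM to 122, 48.3, 64.5, 53.5 and 62.0 CPM (1.44 ± 0.38, adjusted p = 0.00662). Col1a1 was at 3.76, 4.71 and 3.94 CPM against 45.9, 11, 16, 16.9 and 15.9 CPM and did not pass in limma with all libraries (1.89 ± 0.75, adjusted p = 0.0631). It was not called in 13 of the 18 other fits. Both edgeR tests, DESeq2, the fit of only these groups and the replicate block called Col1a1. The summed stellate and matrix level was 616 to 685 CPM on chow and 726 to 1103 CPM in WD LKO NAMPT, again highest in library 1. Calls for Lgmn and Col3a1 were lost with equal sample weights, without chow library 1 and without chow library 2. The part of a change in cell makeup in these results was not tested.

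Of 23 cell cycle genes 16 were higher and 0 lower, with a median log2 fold change of 1.72. That count was 0 with equal sample weights, 0 without chow library 1 or without chow library 2, and 19 with the replicate number as a block. Mki67, a marker of cycling cells, was at 1.65, 1.82 and 3.31 CPM on chow and at 11.9, 11.2, 8.58, 9.80 and 7.42 CPM in WD LKO NAMPT (2.35 ± 0.74, adjusted p = 0.0209). Top2a rose from 1.03, 0.756 and 2.05 CPM to 7.67, 7.69, 5.57, 7.01 and 3.93 CPM (2.66 ± 0.70, adjusted p = 0.00651). The groups did not overlap for either gene, though levels were low. Both calls were lost with equal sample weights, without chow library 1 and without chow library 2, and that for Mki67 also without WD LKO NAMPT library 2, by edgeR quasi-likelihood and without the expression filter.

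Of 25 interferon-stimulated genes 6 were higher (0 to 11) and 0 lower (0 to 1), and of 13 antigen presentation genes 7 were higher (0 to 11) and 0 lower. Each number higher was 0 with equal sample weights, without chow library 1 and without chow library 2. Cxcl9, a T-cell chemokine, was at 7.10, 6.27 and 16.4 CPM against 49.4, 28.3, 31.9, 47.3 and 21.6 CPM (2.08 ± 0.45, adjusted p = 0.00162), and its call was lost in those same 3 fits. Acute-phase and complement genes split, with 8 of 32 higher (2 to 10) and 6 lower (4 to 8). Orm3, an orosomucoid, rose (2.66 ± 0.55, adjusted p = 0.00101), and C8b, a subunit of the membrane attack complex, fell from 316, 334 and 367 CPM to 65.7, 68.6, 57.2, 70.8 and 73.2 CPM (-2.27 ± 0.47, adjusted p = 0.0011).

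Neutrophil markers had 0 of 7 called and summed to 3.91 to 7.72 CPM on chow and 6.21 to 23.8 CPM in WD LKO NAMPT. Lymphocyte markers had 1 of 13 higher (0 to 2) and 1 lower (0 to 1), cholangiocyte markers 2 of 10 higher (0 to 2) and 2 lower (1 to 3), and sinusoidal endothelial markers 2 of 13 higher (1 to 3) and 2 lower (1 to 2). Of 7 adipocyte, pancreas and erythrocyte markers 1 was higher (0 to 4) and 1 lower (0 to 1), and Cela3b, Ins2 and Prss2 of that list had no reads in any of the 8 libraries. The hepatocyte list had 0 of 11 higher and 3 lower (1 to 3). Retinoid genes had 6 of 19 higher (0 to 6, with 0 without chow library 1) and 3 lower (2 to 4). NRF2 targets had 4 of 23 higher (2 to 7, with 2 without chow library 1) and 1 lower. Unfolded protein and integrated stress response genes had 3 of 25 higher (1 to 6, with 1 without chow library 1) and 3 lower (1 to 8, with 8 without WD LKO NAMPT library 5). Atf4, the transcription factor of the latter response, fell (-0.68 ± 0.13, adjusted p = 0.000435) and its target Chac1 rose (2.33 ± 0.67, adjusted p = 0.0119). Both calls were lost without chow library 1, and that for Chac1 also without chow library 2 and with equal sample weights.

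Of 18 iron and metal handling genes 5 were higher (0 to 6, with 0 without chow library 1) and 3 lower (2 to 3). Mt1, a metallothionein, took a different sign by the test used. It was at 7.31, 7.56 and 347 CPM on chow and at 349, 64.4, 37.8, 97.4 and 50.8 CPM in WD LKO NAMPT. Limma with sample weights gave 2.63 ± 0.81 (adjusted p = 0.0185), whereas edgeR quasi-likelihood gave -0.01 (adjusted p = 0.997). The call was lost in 7 of the 18 other fits, among them those without chow library 1 or 2.

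**Figure D5:**
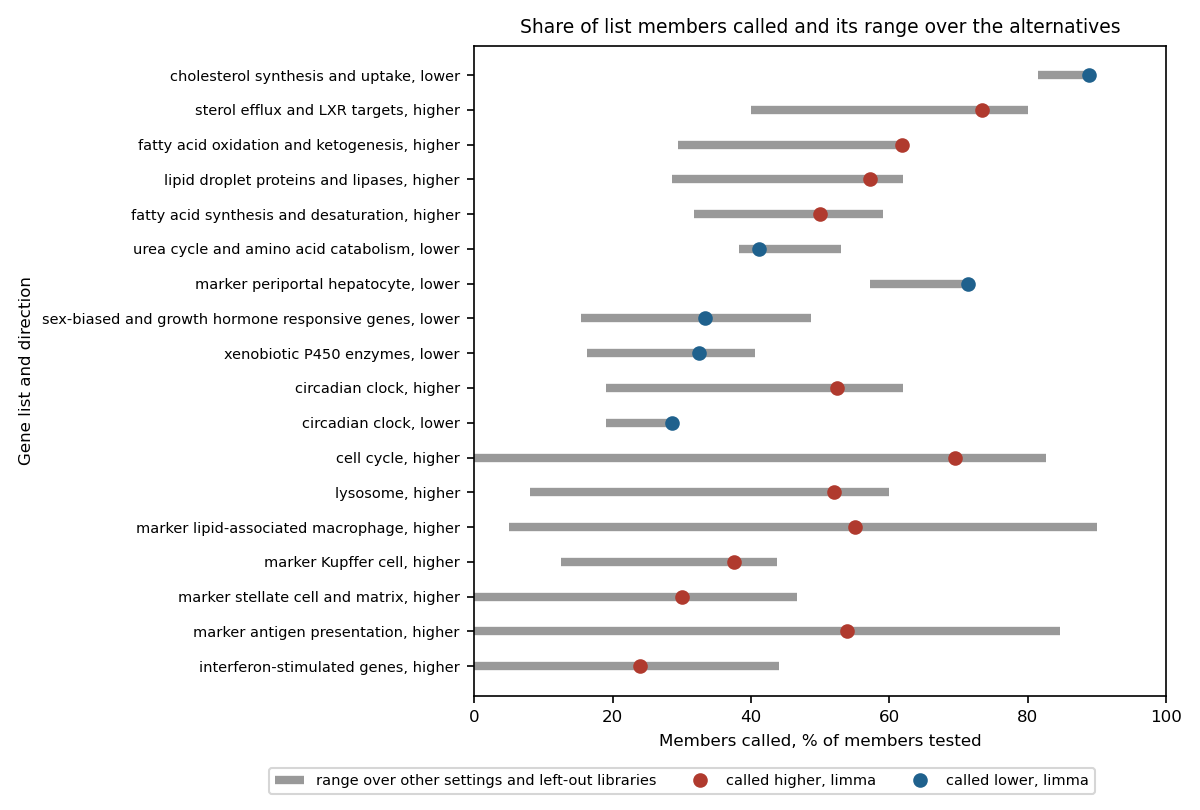
Share of tested members called in each list and direction, in percent, by limma with all libraries (points, red for higher and blue for lower) and the range over 10 other settings and 8 fits without 1 library (gray bars). Cholesterol genes stayed between 22 and 24 of 27 called lower, whereas cell cycle, matrix, antigen presentation and interferon lists reached 0 called. The share called over all genes also moved between these fits and is not drawn.

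Some exons overlap those of another gene, so that reads could be shared where counting did not use strand. Among the genes above, the overlap on the other strand was 632 bases for Apoa4 (Gm10680), 491 for Dbp (Sphk2) and 2268 for Nr1i3 (Tomm40l), and Afmid shared 1566 bases with Gm20708 on its own strand.

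Outside the lists, the largest rises among called genes with no overlap and an average log2 CPM of at least 0 included genes that were at or near 0 on chow. Pnpla5, a lipase of the patatin family, had 0 reads in all 3 chow libraries and 2.34, 2.86, 4.31, 4.10 and 2.03 CPM in WD LKO NAMPT (60 to 99 reads). Set against 3 reads per chow library it was at least 25-fold higher. Slc2a4, the insulin-responsive glucose transporter, was at 0.248, 0.00 and 0.0788 CPM against 3.07, 5.68, 4.62, 1.14 and 2.44 CPM (8 chow reads in all). The limma calls for Pnpla5 and Slc2a4 were lost without chow library 1 and without chow library 2, and that for Pnpla5 also with equal sample weights. Rgs16, a regulator of G protein signaling, rose from 2.97, 2.0 and 1.69 CPM to 85.2, 58.2, 75.8, 91.9 and 81.9 CPM (5.01 ± 0.89, adjusted p = 0.000254). Mfsd2a, a lysophospholipid transporter, rose from 3.51, 4.62 and 13.1 CPM to 158, 169, 193, 129 and 134 CPM (4.98 ± 0.34, adjusted p = 2.58e-10).

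The other large rises were Eda2r (5.15 ± 1.20, adjusted p = 0.00286), Ephb2 (5.06 ± 1.76, adjusted p = 0.0341) and Themis (4.99 ± 1.32, adjusted p = 0.00702). Calls for Eda2r, Ephb2 and Themis were lost without chow library 1 and without chow library 2, and Ephb2 was lost in 6 of 18 other fits, among them those without chow library 3 and without WD LKO NAMPT library 2. The other large falls were Srgap3, from 21.8, 16.3 and 12.9 CPM to 0.813 to 1.39 CPM (-4.02 ± 0.31, adjusted p = 1.96e-09), the homeobox gene Pitx3 (-3.90 ± 0.67, adjusted p = 0.000195) and Fam222a (-3.43 ± 0.31, adjusted p = 4.36e-08). Chow library 3, at 3.47 CPM, was the lowest chow library for Pitx3, against 25.2 and 15.5 CPM in the others.

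The WD LKO NAMPT libraries were also set directly against the other Western diet groups, as contrasts of the same fit on all 25 libraries. Against WD WT EV, limma called 0 of 14065 genes (0.0%), the smallest adjusted p was 0.293, and 1133 genes had an unadjusted p under 0.05. The edgeR quasi-likelihood test called 0, the edgeR exact test 1 and DESeq2 5. Against WD LKO EV, which shares diet and genotype and differs by the NAMPT vector, limma called 1 gene (0.00711%) and 1355 had an unadjusted p under 0.05. That gene was Adamtsl2, a secreted matrix protein gene, at 5.51, 2.40, 3.96, 2.58 and 2.98 CPM against 5.71, 7.61, 6.75, 5.95 and 6.79 CPM in WD LKO EV (-1.18 ± 0.18, adjusted p = 0.0116). No gene was called with equal sample weights, without the expression filter, with only these groups fitted, with the replicate number as a block or by edgeR quasi-likelihood, nor without WD LKO EV library 2 or 3 or WD LKO NAMPT library 2 or 5, and the count was 0 to 4 over the left-out libraries. The edgeR exact test called 3 genes and DESeq2 6. A count of 0 or 1 does not show that the groups are alike.

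Against WD WT NAMPT, which shares diet and vector and differs by genotype, 1120 genes were called (7.96%), 588 higher and 532 lower. That count rested on single libraries, since it was 0 without WD LKO NAMPT library 2, 2 without library 5 and 2265 without library 1, and it was 13 when only these 2 groups were fitted and 45 by edgeR quasi-likelihood. It was 200 without WD LKO NAMPT library 3 and 1817 without library 4, and leaving out WD WT NAMPT libraries 1 to 6 in turn gave 640, 149, 78, 655, 1954 and 2290. The split also depended on the scaling, with 345 higher and 713 lower under upper-quartile scaling and 208 higher and 635 lower with library size alone. Among the largest differences by the naming rule, Cyp4a10, a fatty acid hydroxylase and PPARα target, was at 308, 574, 571, 541 and 576 CPM against 27.3 to 179 CPM in WD WT NAMPT (2.45 ± 0.36, adjusted p = 0.00324). Cyp4a14, of the same family, differed by 2.14 ± 0.60 (adjusted p = 0.0336) and Cyp2b9 by 4.07 ± 1.21 (adjusted p = 0.0414). Serpina1e was lower in WD LKO NAMPT (-3.76 ± 0.76, adjusted p = 0.0145), as were Gstp2 (-1.54 ± 0.24, adjusted p = 0.00451) and Enho (-1.48 ± 0.43, adjusted p = 0.039). For Serpina1e the WD WT NAMPT libraries ran from 752 to 6535 CPM, all above the 92.1 to 356 CPM of WD LKO NAMPT.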

How the data were processed

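Liver RNA of 25 mice was sequenced as poly-A selected, single-end libraries, and 8 of the libraries form the comparison described. Per the labels, the authors aligned reads to GRCm38 with STAR 2.5.1a and counted them per gene with featureCounts 1.4.6-p5. The deposited raw counts are whole reads per gene, and the CPM and RPKM values deposited beside them are scaled by library total and by library total and gene length. CPM and RPKM recomputed from the counts differed from the deposited values by at most 5.9e-14 in relative terms. Whether counting used strand is not given in the sources used here.

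Counts of 41388 genes were read, 355 ribosomal RNA genes were left out, and 14065 genes over 1 CPM in at least 2 libraries were kept. Total counts, groups and sample weights are given with the results. Counts were TMM-scaled (edgeR 4.0.16, R 4.3.3) and fitted with limma 3.58.1 (voom with sample quality weights, 1 mean per group, all 25 libraries), with Benjamini-Hochberg adjustment and a threshold of 0.05. Printed CPM values are TMM-scaled. Sirt1, Nampt and Fgf21 were also compared by an exact permutation test on log2(CPM + 0.5). Alternatives were the edgeR quasi-likelihood and exact tests, DESeq2 1.42.0, other scalings, weights and filters, and fits without 1 library. The fitting code was tested on simulated data.

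Genes were named by rule: Sirt1, Nampt and Fgf21, the 10 largest rises and falls among called genes without overlap, up to 4 called members of each list by smallest adjusted p, and the largest differences in the direct comparisons (up to 5 or 3 each way). The largest rises and falls, the list members and the direct differences also needed an average log2 CPM of at least 0. Regulators and rate-limiting enzymes given as values, and Cux2, Cyp3a41a, Cyp7b1 and Cyp8b1, were chosen after their values were seen. The members and gene lists were chosen with earlier results of these data known. The titles, followed here, give the vector insert as NAMPT, whereas the labels' treatment text names SIRT1. Promoter sequences came from RefSeq (GRCm38.p6). Some genes are not reported here.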

Additional observations from a re-analysis of the deposited data

Results flagged for a closer look

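In the 5 WD LKO NAMPT libraries, 14 of 175 named genes had 1 library whose gap to the nearest other, as a share of the whole range (Dixon's ratio), passed the 95% critical value. Chance alone flags about 1 in 20 such groups, and these genes are not independent. Library 1 held 6 of the flags, library 3 held 5, library 4 held 2, library 5 held 1 and library 2 held 0.

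Library 1 was the lowest for Cyp4a10 (ratio 0.902, 308 CPM against 541 to 576), Fabp2 (0.862, 126 CPM against 203 to 219) and Mgll, a monoacylglycerol lipase (0.848, 192 CPM against 304 to 331). The same library was the highest for the lysosomal genes Hexa (0.81, 89.4 CPM against 60.8 to 65.5) and Lgmn (0.803, 109 CPM against 60.5 to 68.0) and for Trem2 (0.726, 11 CPM against 1.18 to 2.35). Its summed macrophage and matrix markers were also the highest of the group, and their part in these values was not tested.

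Library 3 was the lowest for Ephb2 (0.791, 2.31 CPM against 12.8 to 19.6), Fth1, ferritin heavy chain (0.76, 1023 CPM against 1686 to 1973), and Apom (0.756, 47.5 CPM against 71.2 to 81.1). It was the highest for Idi1 (0.763, 11.1 CPM against 5.75 to 6.73) and Nfe2l2, which encodes NRF2 (0.714, 101 CPM against 72.6 to 79.8). Library 5 was the lowest for Mvk (0.746, 5.35 CPM against 7.36 to 8.19). Library 4 was the lowest for Epcam (0.74, 0.465 CPM against 0.784 to 0.92) and the highest for Orm3 (0.711, 24.9 CPM against 12.2 to 15.0).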

How the results depend on the processing

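Of 154 named genes called against chow, 86 were called in all 18 other fits. Against chow, 3874 genes became 1798 (941 higher, 857 lower) by edgeR quasi-likelihood, 1998 (1047, 951) by the edgeR exact test, 2316 (1276, 1040) by DESeq2, 1613 (708, 905) with equal sample weights and 2750 (1259, 1491) without the filter, which moved the median of all genes to -0.12 on the log2 scale. Leaving out 1 library gave 1278 to 3790 genes, 529 to 1918 higher and 749 to 1967 lower. Against WD WT EV, 0 became 1 by the exact test and 5 by DESeq2, and 0 to 1 without 1 library. Against WD LKO EV, 1 became 0 by quasi-likelihood, 3 by the exact test, 6 by DESeq2, 0 with equal weights, without the filter, with only these groups and with the replicate block, and 0 to 4 without 1 library. Against WD WT NAMPT, 1120 became 45, 173, 294, 38, 120, 13 and 412 in the same order, and 0 to 2290 without 1 library. The cause was not tested.

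The sign turned for Mt1 (-0.00934 by quasi-likelihood, -0.009014 by the exact test, -0.005714 by DESeq2) and for Nr1h3 (0.005006 without the filter). Leaving out 1 library turned it for Nr1h3 (-0.04551 to 0.01884), Cyp7a1 (-1.212 to 0.07925) and Sirt1 (-0.1832 to 0.003844), none of them called. Deviations of same-numbered chow and WD LKO NAMPT libraries correlated at -0.213, 0.1 and -0.164. For number 1 the correlation with WD LKO NAMPT was 0.265 in WD WT EV, 0.228 in WD LKO EV and 0.194 in WD WT NAMPT. For the other numbers of those groups it ran from -0.145 to 0.124. So few values cannot settle whether the numbers pair any libraries. The replicate block gave 3411 calls against chow.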
